A study of Mus musculus with 12 samples.

Results

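F13a1, Fn1, Vcan, Sulf2, Spp1 and Thbs1, 6 genes of the extracellular matrix and of clotting, were followed in mouse Ly6C+ monocytes. They were picked by symbol from the 55487 genes of the deposited table, with their levels and differences in these libraries already known, so those values are given as a description. A member is said to be called where it passed the threshold applied to all genes. The share of all genes called is given with the count of members, and nothing is supported with these calls or their loss. RNA-seq had been run on 12 libraries, 3 in each of 4 groups named by their titles. BM libraries came from bone marrow of WT genotype with no age label, and the other 9 from fetal liver. KO libraries had the genotype KO and embryonic day E13.5, Mixed libraries the genotype WT and day E15.5, and WT libraries the genotype WT, with WT 1 at E13.5 and WT 2 and WT 3 at E15.5. The series title names cMaf (gene Maf) and Zeb2, a zinc-finger repressor, and its design text names tissue macrophages of a line called Z165KO. Which allele the KO libraries carry, what Mixed stands for, the strain and whether a library pools embryos or animals is not given in the sources used. Since all KO libraries were of E13.5, genotype and embryonic day can be told apart only through WT 1.

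Monocytes are blood phagocytes that leave the marrow or fetal liver, and Ly6C is a surface protein of the classical subset. Besides engulfing particles they secrete proteins that build and remodel the provisional matrix, the temporary scaffold of fibrin and fibronectin laid down where vessels leak or tissue is injured. Factor XIII, whose catalytic A chain is the product of F13a1, crosslinks fibrin and ties fibronectin to it. Fibronectin (Fn1), versican (Vcan), thrombospondin-1 (Thbs1) and osteopontin (Spp1) are secreted proteins that cells bind through integrins, CD44, CD36 or CD47, and Sulf2 encodes an enzyme that trims sulfate from heparan sulfate outside the cell.

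In GRCm38, the assembly that mm10 denotes, the GENCODE annotation places F13a1 on chromosome 13 from 36867178 to 37050244, Vcan on chromosome 13 from 89655312 to 89742509, Fn1 on chromosome 1 from 71585520 to 71653200 and Sulf2 on chromosome 2 from 166073089 to 166155663, all on the minus strand. Thbs1 lies on chromosome 2 from 118111876 to 118127133 and Spp1 on chromosome 5 from 104435118 to 104441050, both on the plus strand. The genes span from 5.93 kb (Spp1) to 183 kb (F13a1). Exons of each of the 6 lie in part within the start-to-end span of another annotated gene, whose own exons were not compared. The overlaps are 1878 and 2632 bases with the antisense genes Gm49144 and Gm30489 at F13a1, 364 bases with antisense Apol7d at Fn1, 746 bases with antisense Gm4117 at Vcan, 154 bases with antisense Ncoa3 at Sulf2, 412 bases with antisense Gm29233 at Thbs1, and 309 bases with Gm42793 on the same strand at Spp1. The library kit does not mark strand. Where such a stretch is also exonic in the other gene, its reads cannot be told apart and that share of the count is uncertain.

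The sequence just upstream of each start site is shown for the members that moved in opposite directions in the same libraries. RefSeq entries (GRCm38.p6) for 4 of the 6 members gave 7 windows of 250 bases, and the window at the outermost start site of each is printed 5′ to 3′ on the strand of the gene. Capitals mark CACCTG, the E-box letters that ZEB-family repressors bind, or GAGGAA, an ETS-family core, on either strand (CAGGTG and TTCCTC when read on the other). F13a1, chr13:37050245-37050494, minus strand, Vcan, chr13:89742513-89742762, minus strand, Sulf2, chr2:166155684-166155933, minus strand, and Spp1, chr5:104434861-104435110, plus strand, read:
F13a1: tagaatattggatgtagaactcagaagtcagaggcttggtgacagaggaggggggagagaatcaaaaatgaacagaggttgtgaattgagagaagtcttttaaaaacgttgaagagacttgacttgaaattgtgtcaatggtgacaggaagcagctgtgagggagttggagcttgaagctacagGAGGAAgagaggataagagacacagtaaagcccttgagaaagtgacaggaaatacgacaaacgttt
Vcan: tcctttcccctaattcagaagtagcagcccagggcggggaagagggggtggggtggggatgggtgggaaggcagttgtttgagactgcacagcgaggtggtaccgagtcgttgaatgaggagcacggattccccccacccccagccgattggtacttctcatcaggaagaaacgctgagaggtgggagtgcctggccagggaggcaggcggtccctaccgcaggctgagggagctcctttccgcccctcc
Sulf2: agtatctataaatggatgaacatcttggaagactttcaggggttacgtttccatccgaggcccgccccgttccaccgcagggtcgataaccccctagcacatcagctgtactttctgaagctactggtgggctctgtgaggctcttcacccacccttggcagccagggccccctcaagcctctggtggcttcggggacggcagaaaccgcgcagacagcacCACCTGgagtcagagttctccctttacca
Spp1: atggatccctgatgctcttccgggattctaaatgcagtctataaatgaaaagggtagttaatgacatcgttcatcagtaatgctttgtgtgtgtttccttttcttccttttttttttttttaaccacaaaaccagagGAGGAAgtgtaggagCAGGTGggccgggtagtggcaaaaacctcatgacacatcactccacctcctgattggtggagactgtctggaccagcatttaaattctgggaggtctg
The Sulf2 window held CACCTG 29 bases before the start site, and the Spp1 window held it on the opposite strand, 98 bases before the start site. GAGGAA lay 66 bases before the start of F13a1 and 113 before that of Spp1, and the Vcan window held neither. TGCTGA, which is part of the MAF recognition element, and TGANTCA, the AP-1 site, matched none of the 7 windows on either strand. Among 32851 RefSeq windows of the same length, 17.2% held CACCTG, 23.3% GAGGAA, 16.1% TGCTGA and 6.75% TGANTCA. None of the 4 motifs contains another, though TGCTGA and TGANTCA can share the letters TGA. A match is a run of letters and not a measured binding site. Fn1 and Thbs1 are named only.

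Total counts per library were 20154462 to 24473471 for KO, 17384911 to 21703987 for WT, 20332206 to 21542255 for Mixed and 18208886 to 21911278 for BM. Levels are given in CPM, counts per 1e+06 counts on scaled library sizes, with 3 libraries a group. The Zeb2 level was 22.15 ± 1.87 CPM (SD) for KO, 149.7 ± 13.1 for WT, 167.4 ± 10.4 for Mixed and 323 ± 13.8 for BM. Its log2 difference between KO and WT was -2.76 (SE 0.0771), with an adjusted p of 3.95e-17 in edgeR's quasi-likelihood test. Maf averaged 9.99 ± 2.44 CPM among KO libraries and 13.7 ± 1.43 among WT libraries (adjusted p = 0.0549). The summed level of 10 classical monocyte markers was 8850 to 9803 CPM for KO, 9818 to 10940 for WT, 12690 to 12870 for Mixed and 31160 to 31660 in BM, and all 10 had counts in every library. Lyz2 had the highest level of the list in each group, at 4273 CPM for KO and 6092 for WT, and so weighed most in these sums. Of the 10 markers 5 were higher in KO than in WT and 4 lower (90% called, beside 38.1% of all genes). Within that list Ly6c2, which encodes a Ly6C protein, was 2.91-fold higher in KO than in WT (adjusted p = 9.99e-15) and Csf1r, the receptor for the monocyte growth factor, was 2.19-fold lower (adjusted p = 5.29e-13).

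Transcripts of other cell types were unevenly spread. The hepatocyte list without Trf, which monocytes also express, summed to 20.78, 29.33 and 101.5 CPM in KO 1 to 3, to 13.61, 9.829 and 79.16 in WT 1 to 3, to 6.399 to 9.194 in Mixed and to 0.09921 to 0.6595 in BM, where Alb and Apoa1 had no count. The 12 megakaryocyte and platelet markers summed to 5.866 to 19.45 CPM for KO, 6.121 to 16.77 for WT, 3.522 to 6.511 for Mixed and 1.025 to 2.143 in BM. The 12 tissue macrophage markers summed to 275.2 to 314.1 CPM for KO, 287.5 to 352.3 for WT, 351.6 to 358.6 for Mixed and 347 to 360.5 in BM, with Vsig4 at 0 throughout. Most of these sums was Adgre1, at 195.6 CPM for KO, 184.6 for WT, 231.1 for Mixed and 315.2 for BM. Of the 10 macrophage markers tested, 7 were lower in BM than in WT and 2 higher (90% called, beside 64.0% of all genes). The 12 stromal and endothelial markers summed to between 2.592 and 11.43 CPM in all groups. The 12 granulocyte and precursor markers, a list drawn up after the values were seen, summed to 12800 to 15660 CPM for KO, 10780 to 13280 for WT, 9644 to 9821 for Mixed and 2048 to 2373 in BM. WT 3 had the highest sum among the WT libraries for every marker list. That included the classical monocyte list, at 10940 CPM against 9818 and 9868, and the stromal and endothelial list, at 7.47 against 5.3 and 3.485. Values that rest on WT 3 are also given without it. In bulk RNA, fewer cells that express a gene and less of its RNA per cell cannot be told apart.

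F13a1 was the most abundant of the 6 per transcript length in each group, and its level was lowest in KO, then WT, then Mixed, and highest in BM. It read 366.5, 441.5 and 361.9 CPM in KO 1 to 3, 2249, 2351 and 2663 in WT 1 to 3, 3089, 2981 and 3115 in Mixed 1 to 3, and 6780, 6968 and 6970 in BM 1 to 3. No library of a group overlapped the next group in this order. In the deposited TPM, which are scaled for length, F13a1 averaged 117.4 ± 10.1 (SD) for KO, 797.5 ± 60.7 for WT, 1056 ± 41.9 for Mixed and 2461 ± 61.7 in BM, and it ranked 46 among all genes in BM against 1302 in KO. KO lay 6.21-fold below WT, a log2 difference of -2.63 (SE 0.0724). With embryonic day as a factor, which sets KO against WT 1 at the same day, that difference was -2.51. Mixed lay 1.26-fold above WT (log2 difference 0.34, SE 0.0679), and 0.29 against the WT libraries of its own day. BM lay 2.85-fold above WT (log2 difference 1.51, SE 0.0693). F13b, the carrier chain that joins the A chain in plasma factor XIII, had 2 counts over the 3 KO libraries and none in the other groups. These libraries therefore held transcripts of the catalytic chain with next to none of its plasma partner.

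**Figure D1:**
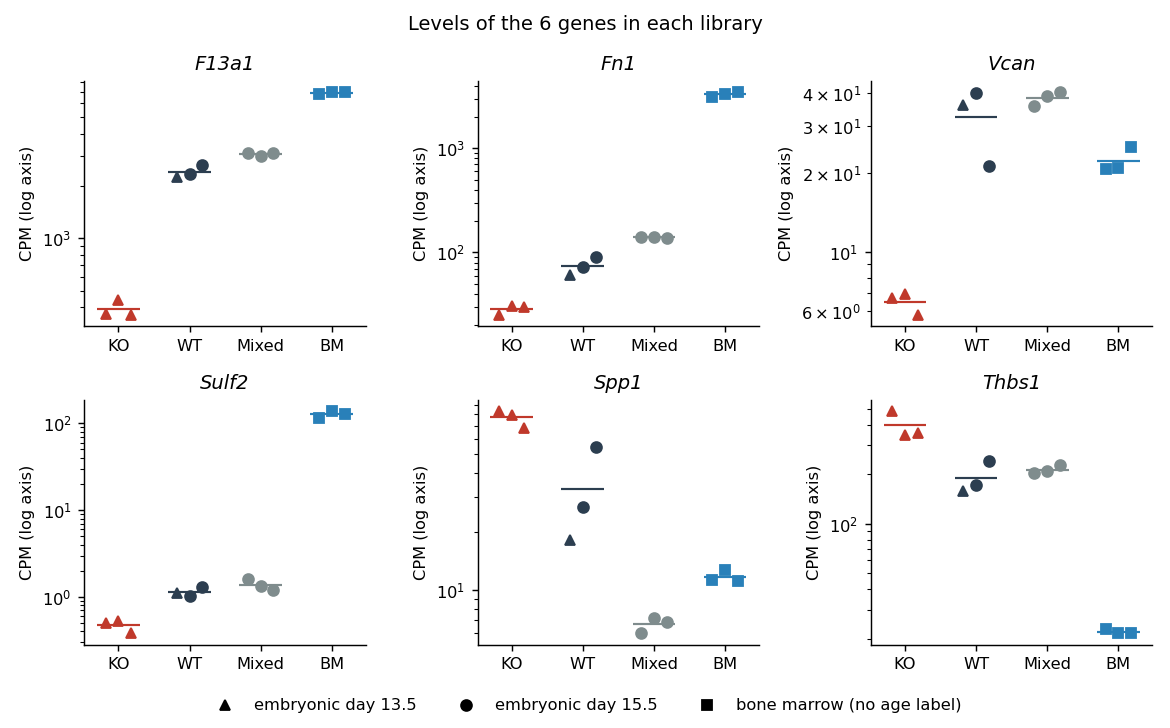
Level of each of the 6 genes in every library, in CPM on a log axis, by group, with the group mean as a line. Triangles are libraries of E13.5, circles of E15.5 and squares bone marrow. F13a1, Fn1 and Sulf2 are lowest in KO and highest in BM, Vcan is lowest in KO, and Spp1 and Thbs1 are highest in KO.

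Fn1, the fibronectin gene, followed the same order as F13a1 with a much wider step to bone marrow. It read 25.15, 30.64 and 30.05 CPM in KO 1 to 3, 60.64, 72.2 and 91.33 in WT 1 to 3, 141.8, 142 and 136.4 in Mixed 1 to 3, and 3109, 3297 and 3457 in BM 1 to 3. The 4 groups did not overlap. KO lay 2.62-fold below WT (log2 difference -1.39, SE 0.133) and 4.9-fold below Mixed (log2 difference -2.29, SE 0.133). With embryonic day as a factor the difference between KO and WT was -1.07. BM lay 43.9-fold above WT (log2 difference 5.46, SE 0.142), the 185th largest absolute difference of 14618 genes. Hepatocytes also make fibronectin. Fn1 was highest in the BM libraries, where the hepatocyte markers without Trf were at or below 0.6595 CPM, and KO 3 and KO 2 had 30.05 and 30.64 CPM of Fn1 beside 101.5 and 29.33 CPM of those markers. In the WT group WT 3 was highest for both. The part of hepatocyte RNA in the fetal Fn1 values was not tested. With KO 3 and WT 3 both left out, a setting chosen after seeing the data, the difference between KO and WT was -1.26.

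Sulf2, the heparan sulfate 6-O-endosulfatase gene, was near the limit of detection in fetal liver and plainly present in bone marrow. Its levels were 0.5002, 0.5256 and 0.3803 CPM in KO 1 to 3, 1.116, 1.028 and 1.315 in WT 1 to 3 and 1.601, 1.32 and 1.203 in Mixed 1 to 3. BM 1 to 3 had 115.9, 139.8 and 127.4 CPM. The counts behind the fetal values were small, 9.33 to 11.26 estimated counts per KO library, 19.82 to 27.83 per WT library and 24.92 to 35.04 per Mixed library. WT and Mixed overlapped, and no other neighbours did. The log2 difference between KO and WT was -1.30 (SE 0.26), or 2.46-fold lower in KO, and with embryonic day as a factor it was -1.23 and the gene was no longer called. BM lay 110-fold above WT (log2 difference 6.79, SE 0.128), the 100th largest absolute difference of the 14618. Sulf1, the other gene of this enzyme pair, had 0, 3, 1 and 4 counts over the libraries of KO, WT, Mixed and BM.

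Vcan, which encodes a large chondroitin sulfate proteoglycan that binds hyaluronan, was the only member of the 6 whose mean was higher in WT than in BM while being lower in KO. It read 6.684, 6.938 and 5.79 CPM in KO 1 to 3, 35.98, 39.94 and 21.14 in WT 1 to 3, 35.68, 39.11 and 40.27 in Mixed 1 to 3, and 20.61, 20.74 and 25.05 in BM 1 to 3. All KO libraries lay below those of the other groups. WT overlapped both Mixed and BM, the latter through WT 3 alone, which was the lowest WT library for Vcan and the highest for the other 5 members. KO lay 5.01-fold below WT (log2 difference -2.33, SE 0.207), -2.56 without WT 3 and -2.46 with embryonic day as a factor. The difference between Mixed and WT was 0.25 (SE 0.18) and 0.01 without WT 3. The difference between BM and WT was -0.55 (SE 0.185), and -0.78 without WT 3. Its call stayed without WT 3 or BM 3 (-0.65). The call was lost without BM 1 (-0.50), BM 2 (-0.53), WT 1 (-0.47) or WT 2 (-0.36).

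Spp1 and Thbs1 ran the other way, with their highest levels in KO. Spp1, the gene of osteopontin, a secreted integrin and CD44 ligand, read 83.67, 79.84 and 68.25 CPM in KO 1 to 3, 18.13, 26.72 and 54.12 in WT 1 to 3, 5.992, 7.194 and 6.88 in Mixed 1 to 3, and 11.21, 12.72 and 11.11 in BM 1 to 3. The order was Mixed, BM, WT, KO with no overlap, and the WT libraries differed most among themselves, WT 3 lying nearest to KO. KO lay 2.33-fold above WT (log2 difference 1.22, SE 0.326). Without WT 3 the difference was 1.77, with KO 3 and WT 3 both left out it was 1.86, and with embryonic day as a factor it was 2.11, or 4.31-fold. The call was lost without KO 1 (1.16) and without WT 2 (1.08). Mixed lay 4.95-fold below WT (log2 difference -2.31, SE 0.382), the 79th largest absolute difference of that comparison. That difference was -1.76 without WT 3, and its call was lost without Mixed 1 (-2.24). BM lay 2.83-fold below WT (log2 difference -1.50, SE 0.361), and -0.95 without WT 3. The WT library with the most Spp1 was also the one with the highest sum of every marker list, the classical monocyte list included. The part of other cell types in the Spp1 values was not tested. Among the KO libraries the one with the most hepatocyte transcripts, KO 3, had the least Spp1.

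Thbs1, whose product thrombospondin-1 is an adhesive glycoprotein that binds CD36 and CD47, read 485.5, 345.2 and 357.1 CPM in KO 1 to 3, 157.3, 171.9 and 241.2 in WT 1 to 3, 202.1, 208.4 and 228.4 in Mixed 1 to 3, and 22.81, 21.62 and 21.53 in BM 1 to 3. Only WT and Mixed overlapped, through WT 3 alone. The difference between Mixed and WT was 0.16 (SE 0.175), and 0.37 without WT 3. KO lay 2.08-fold above WT (log2 difference 1.06, SE 0.176) and 1.86-fold above Mixed (log2 difference 0.89, SE 0.175). With embryonic day as a factor the first of these was 1.35, and without WT 3 it was 1.26. BM lay 8.66-fold below WT (log2 difference -3.11, SE 0.202), and -2.91 without WT 3. Platelets store thrombospondin-1, and KO 2, the library with the largest sum of platelet markers (19.45 CPM), had the least Thbs1 of the KO group, whereas WT 3, with the largest sum of the WT group (16.77 CPM against 7.476 and 6.121), had the most. The part of platelet RNA in the Thbs1 values was not tested. Of the other thrombospondin genes, Thbs2 had no count in any library, Thbs3 had 5, 1, 11 and 24 counts in KO, WT, Mixed and BM, and Thbs4 had 8 in KO and none elsewhere.

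Per transcript length the order of the genes changed between groups. In KO the deposited TPM were 117.4 ± 10.1 for F13a1, 81.37 ± 16.7 for Thbs1 and 72.11 ± 7.07 for Spp1, against 6.455 ± 0.988 for Fn1, 1.307 ± 0.247 for Vcan and 0.1733 ± 0.101 for Sulf2. In BM, F13a1 at 2461 ± 61.7 and Fn1 at 770.8 ± 27.6 stood far above Sulf2 at 45.81 ± 4.13, Spp1 at 12.9 ± 0.969, Vcan at 6.059 ± 0.802 and Thbs1 at 5.202 ± 0.216. Thbs1 therefore ranked second of the 6 in KO and last in BM, while Fn1 stood below both Thbs1 and Spp1 in KO and above them in BM. In WT and Mixed, Thbs1 (43.14 ± 10 and 48.92 ± 3.3 TPM) again came after F13a1.

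All 6 members were called in the comparison of KO with WT, 2 higher and 4 lower, where 38.1% of the 14618 tested genes were called (18.2% higher and 19.9% lower). All 6 also had groups that did not overlap, as did 47.4% of genes. Between KO and Mixed all 6 were called and none overlapped, against 36.7% called (18.2% higher and 18.5% lower) and 48.3% without overlap among all genes. Between BM and WT all 6 were called, 3 higher and 3 lower, and 5 did not overlap, the exception being Vcan, with 64.0% of genes called (32.1% higher and 31.9% lower) and 68.1% without overlap. Between Mixed and WT, 3 were called, F13a1 and Fn1 higher and Spp1 lower, beside 8.07% of genes (4.21% higher and 3.87% lower), and the same 3 did not overlap, beside 27.0% of genes. Since the members were chosen with these contrasts in view, nothing is read from these counts. The comparisons of KO, Mixed and BM with WT share the WT libraries, and those of KO with WT and with Mixed share the KO libraries.

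**Figure D2:**
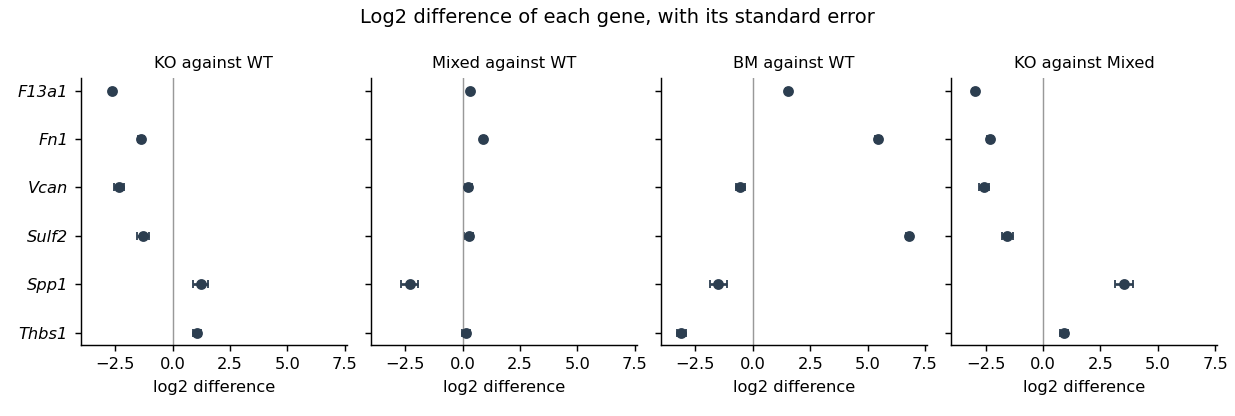
Log2 difference of each of the 6 genes in 4 comparisons, first group minus second, with bars of 1 standard error. Fn1 and Sulf2 lie farthest to the right in BM against WT, at 5.46 and 6.79, and in both KO comparisons Spp1 and Thbs1 lie right of 0 and the other 4 left of it.

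The wider gene lists around these 6, none of which includes a member, were compared in the same fit. These lists too were chosen with earlier results of these data known. Their shares called, medians and adjusted p-values are therefore given as a description. The genes named from a list are mostly its called genes of largest change. In KO against WT the list of other matrix glycoproteins and proteoglycans had 13 of 40 genes measured well enough to test. Of these 8 were lower and 3 higher (84.6% called, beside 38.1% of all genes), with a median log2 difference of -0.76 against -0.03 over all genes. Emilin1, a gene of an elastic-fibre-associated glycoprotein, was 2.71-fold lower, at 15.73 ± 1.11 against 42.77 ± 4.03 CPM (adjusted p = 2.54e-09, edgeR). Ecm1 was 2.46-fold lower, at 4.753 ± 0.791 against 11.74 ± 1.19 CPM (adjusted p = 6.05e-07). Agrn, the gene of the proteoglycan agrin, was 3.31-fold higher at the low levels of 2.528 ± 0.653 against 0.7493 ± 0.19 CPM (adjusted p = 0.00693, and 0.0934 with embryonic day as a factor). With KO 3 and WT 3 both left out the list had 7 lower and 3 higher genes, without WT 3 alone it had 6 lower, and with embryonic day as a factor 4 lower.

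Genes of coagulation and clot dissolution moved in both directions, and 36% of those tested were called in KO against WT beside 38.1% of all genes. Of 38 listed genes 25 were tested in KO against WT, with 4 higher, 5 lower, 16 not called and a median of 0.26 against -0.03 over all genes. With embryonic day as a factor 3 were lower. Tfpi, the gene of tissue factor pathway inhibitor, was 2.82-fold lower, at 5.769 ± 0.716 against 16.28 ± 1.59 CPM (adjusted p = 3.08e-08, edgeR). Pros1, the gene of protein S, a cofactor of anticoagulant protein C, was 2.62-fold lower, at 42.11 ± 2.52 against 110.6 ± 11.4 CPM (adjusted p = 1.24e-12). Anxa2, whose protein gathers plasminogen and its activator on the cell surface, was 2.27-fold higher, at 1264 ± 117 against 557.1 ± 32.6 CPM (adjusted p = 3.74e-12). In BM against WT 9 were higher and 8 lower (68% called, beside 64.0% of all genes), median -0.08 against 0.00308 over all genes. The lower count ran from 2, in a fit of these 2 groups alone, to 12 over the alternatives. Within the list Fgb averaged 1.69 CPM in WT and 0.01832 in BM, and Plg 0.573 and 0. The hepatocyte markers without Trf were also lower in BM, at most 0.6595 CPM against 9.829 to 79.16 in WT. The part of hepatocyte RNA in the lower count was not tested. Thbd, the gene of thrombomodulin, was 3.48-fold higher (51.87 ± 6.57 against 14.92 ± 1.35 CPM, adjusted p = 4.87e-11), F10, the gene of coagulation factor X, 2.68-fold higher (172.6 ± 10.2 against 64.29 ± 2.53 CPM, adjusted p = 1.66e-13), and Tfpi 3.11-fold lower (adjusted p = 2.6e-09). In Mixed against WT 3 were higher and none lower (12% called, beside 8.07% of all genes), median -0.22 against -0.01 over all genes. The lower count was 1 without WT 2, without the filter on low counts or with the replicate block. Anxa2 was 1.32-fold higher (adjusted p = 0.000798), F10 1.26-fold (adjusted p = 0.00689) and Plaur, the urokinase receptor gene, 1.25-fold (adjusted p = 0.0255, lost in 5 of the fits that left out 1 library, WT 3 being the exception).

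Around F13a1, the other transglutaminase genes did not share its order of groups. Tgm1 averaged 11.18 ± 2.63 CPM among KO and 11.15 ± 0.565 among WT libraries (adjusted p = 0.978, edgeR) and was 9.22-fold lower in BM than in WT, at 1.204 ± 0.142 CPM (adjusted p = 7.69e-12). Tgm2, the tissue transglutaminase gene, was 3.56-fold lower in BM than in WT (adjusted p = 1.7e-05) and 2.76-fold higher in KO than in Mixed (adjusted p = 0.000228). Of 7 genes listed 3 were tested. The 1 called in KO against WT was Tgm3, named here after its values were seen, with 44 counts over the KO libraries and 2 over the WT libraries. The number called was 0 where at least 1 CPM was required and 2 with embryonic day as a factor.

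Around Sulf2, genes that build or cut heparan sulfate moved in both directions. In KO against WT, 16 of 28 were tested, with 5 higher and 6 lower (68.8% called, beside 38.1% of all genes). The median was -0.08 against -0.03 over all genes. With embryonic day as a factor 2 were lower. Hs3st3b1, a heparan sulfate 3-O-sulfotransferase gene, was 4.26-fold lower (1.044 ± 0.0975 against 4.479 ± 0.613 CPM, adjusted p = 3.44e-06, edgeR). Sdc3, the gene of the core protein syndecan-3, was 4.11-fold higher (23.11 ± 0.981 against 5.62 ± 0.108 CPM, adjusted p = 2.85e-10), and Hpse, the gene of heparanase, which cuts the chains, 2.11-fold higher (27.77 ± 2.09 against 13.17 ± 0.527 CPM, adjusted p = 1.86e-09). In BM against WT 8 were higher and 5 lower (81.2% called, beside 64.0% of all genes, median 0.43), with 3 lower without BM 3 or without WT 3. There Hpse was 7.39-fold higher, at 97.22 ± 2.76 CPM (adjusted p = 2.52e-17), and Gpc3, the glypican-3 gene, 16.2-fold lower, at 0.4344 ± 0.301 against 6.887 ± 0.265 CPM (adjusted p = 1.11e-11). Heparanase and Sulf2 were thus both high in BM, whereas in KO Hpse was above WT and Sulf2 below it.

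Around Vcan, 17 of 25 genes for chondroitin sulfate and hyaluronan were tested in KO against WT, with 8 higher and 3 lower. That was 64.7% called, beside 38.1% of all genes, and the median was 0.28 against -0.03 over all genes. The higher count was 6 with KO 3 and WT 3 both left out, 4 without WT 2 and 3 with embryonic day as a factor. Chst15, a chondroitin sulfotransferase gene, was 2.27-fold higher (28.19 ± 2.49 against 12.4 ± 1.05 CPM, adjusted p = 4.43e-06, edgeR), and Xylt1, whose enzyme starts the chains, 1.94-fold higher (adjusted p = 3.75e-06). Dse, the gene of an epimerase that turns chondroitin into dermatan sulfate, was 2.84-fold lower (7.366 ± 0.927 against 20.93 ± 2 CPM, adjusted p = 2.77e-10). In BM against WT 9 were higher and 4 lower (76.5% called, beside 64.0% of all genes, median 0.30), and Chst15 was 5.16-fold lower there (adjusted p = 1.25e-09). Versican's core protein gene and Dse were both low in KO, while Chst15 was high.

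**Figure D3:**
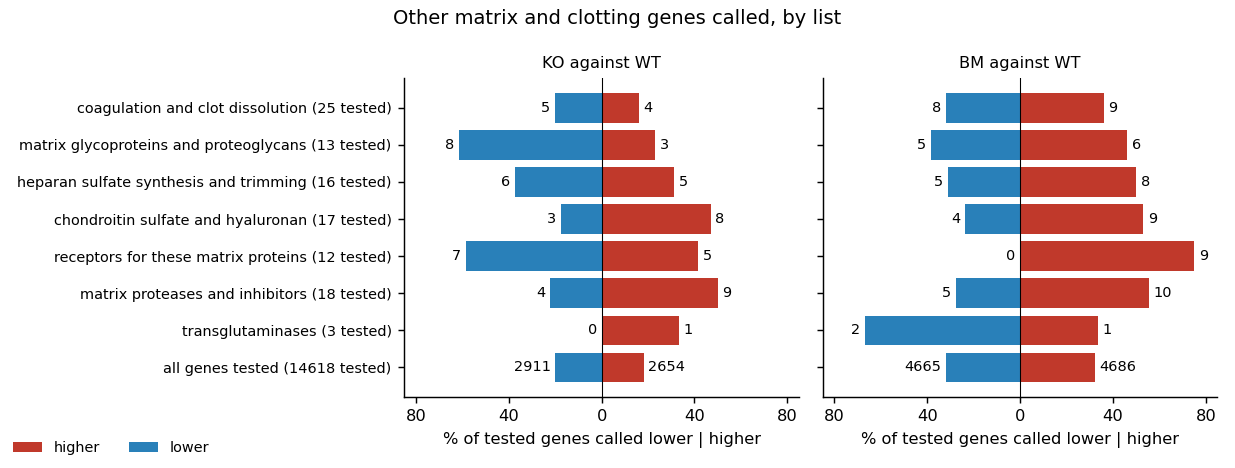
Share of the tested genes of each list called lower (left, blue) and higher (right, red) in KO against WT and in BM against WT, with the number of genes at each bar and all tested genes at the bottom. The glycoprotein list has 8 lower and 3 higher genes in KO, and the receptor list has 9 higher and none lower in BM.

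Genes listed as receptors for these proteins moved in both directions in KO. The list leaves out Cd44, which was counted with chondroitin sulfate and hyaluronan and averaged 329 CPM in KO and 294.7 in WT. Of 15 listed genes 12 were tested against WT, 5 higher and 7 lower (100% called, beside 38.1% of all genes), with a median of -0.50 against -0.03 over all genes. Of the 8 integrin chain genes of the list that were tested, 5 were lower, with log2 differences of -0.56 (SE 0.0792) for Itga5, -0.64 (SE 0.115) for Itgav, -0.71 (SE 0.0905) for Itgb1, -0.56 (SE 0.145) for Itgb3 and -1.53 (SE 0.172) for Itgb5. Cd93 was 3.57-fold lower, at 8.581 ± 1.51 against 30.8 ± 4.38 CPM (adjusted p = 5.73e-08, edgeR). Cd36 and Cd47, whose products bind thrombospondin-1, were higher. Cd36 was 32.5-fold higher, at 93.1 ± 6.47 against 2.828 ± 1.28 CPM (adjusted p = 3.32e-13), and Cd47 differed by 0.64 on the log2 scale (SE 0.084). Lrp1, the gene of a scavenging receptor that clears thrombospondin-1, was lower, by -0.44 (SE 0.0721). Itga4 and Itgb7, whose products pair as an integrin that binds fibronectin and mucosal addressin, were also higher, by 0.72 (SE 0.0633) and 2.43 (SE 0.0665), as was Itga8, a chain of another fibronectin and osteopontin receptor, by 0.89 (SE 0.195) at the low levels of 4.27 ± 0.511 against 2.294 ± 0.517 CPM.

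In BM against WT, 9 receptor genes were higher and none lower (75% called, beside 64.0% of all genes). The median log2 difference was 0.83 against 0.00308 over all genes, and 1 was lower without the filter on low counts. Itgb7 was 14.1-fold higher, at 626.1 ± 24.4 against 44.43 ± 2.85 CPM (adjusted p = 1.08e-20, edgeR), and Itgb3 4.96-fold, at 47.48 ± 1.45 against 9.524 ± 2.4 CPM (adjusted p = 1.21e-12). Itgav, Itgb1 and Itgb5 were not called. Cd36, at 9.995 ± 0.169 CPM in BM, stood between WT and KO. In Mixed against WT, Itgb7 (1.52-fold, adjusted p = 2.18e-05) and Lrp1 (1.27-fold, adjusted p = 0.00505) were higher and none was lower (16.7% called, beside 8.07% of all genes). The lower count was 1 without Mixed 3 or WT 1, and 2 by DESeq2 and without the filter on low counts.

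**Figure D4:**
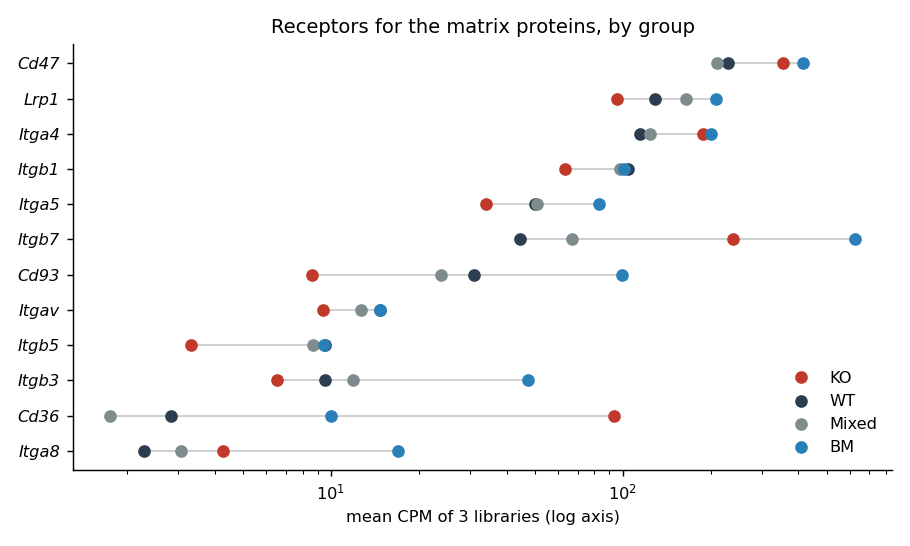
Mean CPM of 3 libraries, on a log axis, for the 12 tested receptor genes in each group, sorted by the WT level. KO points lie lowest for 7 genes, Cd36 is highest in KO at 93.1 CPM, and Itgb7 is higher in KO and in BM than in WT.

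Among proteases and their inhibitors, 18 of 28 listed genes were tested in KO against WT. Of these 9 were higher and 4 lower (72.2% called, beside 38.1% of all genes), with a median of 0.15. Adam19, a membrane-bound metalloprotease gene, was 23.4-fold higher (53.43 ± 6.77 against 2.29 ± 0.402 CPM, adjusted p = 8.37e-16, edgeR), and 10.7-fold higher in BM than in WT (adjusted p = 2.58e-14). Mmp8, the neutrophil collagenase gene, was 6.36-fold higher in KO, at 1033 ± 49.4 against 162.4 ± 24.8 CPM (adjusted p = 8.34e-15), and Adam8 3.98-fold higher (adjusted p = 1.01e-08). Beside Mmp8, 4 of the 12 granulocyte and precursor markers were higher in KO than in WT and 4 lower (66.7% called, beside 38.1% of all genes). Ly6g was 13.3-fold higher, at 11.21 ± 2.64 against 0.8308 ± 0.503 CPM (adjusted p = 2.96e-09). S100a9 was 5.1-fold higher (adjusted p = 2.46e-07) and Lcn2 3.58-fold (adjusted p = 0.00378). Mean levels were lower in KO than in WT for Mpo (2072 against 5487 CPM), Elane (225.3 against 478) and Ctsg (14.97 against 35.35). The same held for the means of Ltf (230.1 against 333.6), Ngp (239.5 against 415.8) and Camp (61.36 against 80.22). Whether transcripts of granulocytes have a part in the KO levels of Mmp8, Spp1 or Thbs1 was not tested. In BM against WT 10 genes of the protease list were higher and 5 lower (83.3% called, beside 64.0% of all genes, median 0.37). The lower count was 8 without the filter on low counts and 3 where at least 1 CPM was required. Among the higher genes was Ctss, the cathepsin S gene, 3.24-fold higher (adjusted p = 4e-17).

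The genes with the pattern most like each member were found by Pearson correlation of log2 CPM. The 12 libraries fall into 4 groups, so these values mostly compare group means, and they are given as a description. F13a1 was followed most closely by Wls (r = 0.996), Ldhb (0.995) and Adam15 (0.995). Wls, which carries Wnt proteins to the surface, was also among its 3 nearest genes over the 9 fetal liver libraries (r = 0.997), with S100a1 (0.998) and Treml4 (0.997). Fn1 was followed by Anxa5 (0.998), Sfxn3 (0.997) and L1cam (0.997), and Sulf2 by Ccl6, Klf4 and Fcgr2b (each 0.996). Vcan, with Ctnnd1 at 0.974, Snx7 at 0.963 and Ralb at 0.961, had looser neighbours. Thbs1 was nearest to G0s2 (0.994), the glucose transporter gene Slc2a1 (0.993) and the calprotectin gene S100a8 (0.991), whose mean CPM was 5698 for KO, 3057 for WT, 2543 for Mixed and 187.9 for BM. Spp1 had the loosest neighbours of the 6, with the granule protein gene Lcn2 at 0.932, the ferritin gene Fth1 at 0.928 and Chil1 at 0.920. Lcn2 averaged 292 CPM for KO, 81.3 for WT, 34.4 for Mixed and 27.7 for BM, and Chil1 528, 15.8, 4.06 and 4.65. Within fetal liver the nearest genes were Madd, Tnfrsf1b and Cd300a for Fn1 (0.995, 0.990 and 0.988), Ints6l, Ms4a6d and Tex2 for Vcan (0.990, 0.988 and 0.987), Tex264, Selenbp1 and Ms4a4a for Sulf2 (0.985, 0.984 and 0.978), Rsad2, Wfdc21 and Srp72 for Spp1 (0.974, 0.965 and 0.962), and H2aw, Slc15a3 and Pilrb1 for Thbs1 (0.980, 0.980 and 0.978).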

How the data were processed

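Estimated counts and TPM per gene were deposited by the authors for the 12 libraries. The submitters' processing notes name mm10 and the tools DRAGEN, STAR, Subread, featureCounts and Salmon, without their order or roles. Per the labels' protocols, monocyte RNA was prepared with NucleoSpin RNA XS and SMARTer Ultra Low kits. Of the nonzero deposited estimated counts 28.5% were not whole (tolerance 1e-06). They were rounded to whole numbers, and CPM were computed from them. Of 55774 entries 287 repeats were removed.

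The filter filterByExpr (minimum count 10, minimum total 15) kept 14618 genes, all 6 members among them. Log2 differences came from TMM scaling and edgeR's robust quasi-likelihood test, 1 fit with a mean per group. Two-sided p-values were Benjamini-Hochberg adjusted over all tested genes, and genes under 0.05 are called. SE is the absolute log2 difference over the square root of F. On simulated data the fit recovered 67.5% of 200 genes changed 2-fold in KO against WT, with 9 false calls. The simulation changed these 200 of 14273 genes, whereas 38.1% of genes were called in the data. Its recovered share need not hold for the comparison itself. A gene that is not called may still differ. Correlations took log2 CPM with a prior count of 2. The tools were edgeR 4.0.16, DESeq2 1.42.0 and limma 3.58.1 under R 4.3.3. No label states that libraries are from separate animals: p-values then reflect only how these samples vary, which may be technical.

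The members and gene lists were chosen with earlier results of these data known. Genes named beside the members are Zeb2 and Maf, for each list up to 3 called genes of largest change with at least 1 log2 CPM on average (otherwise up to 2 of highest level), and for each member the 3 genes of largest correlation with at least 3 log2 CPM. Not all are printed. Other receptor genes, Tgm3, Fgb, Plg, Mpo, Elane, Ctsg, Ltf, Ngp, Camp and the partner genes were named after their values were seen. Alternatives were other scalings, tests and filters, left-out libraries, embryonic day and a replicate block.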

Additional observations from a re-analysis of the deposited data

How the results depend on the processing

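No called difference of a member changed direction under the alternatives run. The difference of Sulf2 between Mixed and WT, not called, was 0.26 and turned to -0.05 on the deposited TPM with 1 added. Sulf2 averaged 0.3867 TPM for Mixed and 0.4403 for WT, so the added 1 shrinks its differences there. Of 348 recomputed member differences 334 stayed within the spread of their main value and 14 moved further, most of them on the deposited TPM with 1 added. The calls lost for Spp1 (KO or Mixed against WT), Vcan (BM against WT) and Sulf2 (KO against WT) were those given above, and a fit of only the 2 groups compared also lost the call of Spp1 in KO against WT (1.25) and Mixed against WT (-2.30) and of Vcan in BM against WT (-0.57). Called genes in Mixed against WT were 1180, and 414 to 1457 when 1 library was left out. The fewest remained without Mixed 1 (414), WT 1 (464), Mixed 3 (665) and WT 2 (688), and the cause was not tested. The ranges were 4803 to 5292 for KO against WT (5565 with all libraries), 8756 to 9020 for BM against WT (9351) and 4553 to 4968 for KO against Mixed (5365). With embryonic day as a factor KO against WT gave 3715, and 4831 with KO 3 and WT 3 both left out. Counts of list genes called in 1 direction moved by over 1.5 times in 7 of 210 recomputed values for KO against WT, 25 of 182 for Mixed against WT, 10 of 182 for BM against WT and 4 of 182 for KO against Mixed.

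Replicate numbers showed no pairing of the samples by correlation of log2 CPM with the group mean taken out. Of 18 same-numbered pairs 0 correlated over 0.1 (range -0.0353 to 0.0693). With 3 libraries a group, this check could miss a weak pairing. With the replicate block, called genes were 5525 for KO against WT, 1168 for Mixed against WT, 9262 for BM against WT and 5288 for KO against Mixed. Depth limits Sulf2 in fetal liver, with 9.33 to 35.04 estimated counts per library.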
